A study of Rattus norvegicus with 2 samples.

Results

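The genes described here are 7 genes by which the pancreatic beta cell senses glucose and answers the incretin hormones. They are Slc2a2, G6pc2, Slc30a8, Abcc8, Kcnj11, Glp1r and Gipr. They were found by their names, or older names, among the 43379 gene spots of the array, and 6 of the 7 had a spot, with 7 spots and 7 probes in all out of 41012 gene probes. Slc2a2 had 2 probes and G6pc2 had 0 spots under its name. The study compared human IAPP transgenic rats, called HIP rats, with nondiabetic wild-type rats. The HIP transgene encodes human islet amyloid polypeptide, the peptide that beta cells store and release with insulin, and the line is known as one that expresses it in beta cells from an insulin promoter. Amplified cDNA of 2 wild-type and 2 HIP extracts was hybridised to 2 two-colour arrays, wild type in Cy3 and HIP in Cy5. Array 1 paired wild type 1 with HIP 1, and array 2 paired wild type 2 with HIP 2. Each gene therefore has 1 HIP to wild-type ratio per array and n = 2 arrays. The labels give no age, sex, tissue or agent, and they do not say that the extracts came from separate animals, so p-values here speak of the spread between samples that may be technical repeats. With HIP in Cy5 on both arrays, an effect of dye and one of genotype cannot be told apart.

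Beta cells take up glucose through GLUT2, the product of Slc2a2 and the main glucose transporter of rodent beta cells. Glucose is then phosphorylated as the first step of its use, and the enzyme encoded by G6pc2 works in the opposite direction by removing that phosphate. Glucose metabolism raises ATP, which closes the ATP-sensitive potassium channel built from Kir6.2 (Kcnj11) and the sulfonylurea receptor SUR1 (Abcc8). The membrane depolarises, calcium enters and insulin granules, loaded with zinc by the transporter ZnT8 (Slc30a8), are released. GLP-1 and GIP, the incretin hormones of the gut, act through the class B receptors GLP1R and GIPR, which raise cyclic AMP and strengthen secretion.

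RefSeq sequence upstream of the gene start (GRCr8 assembly) was at hand for 3 of the 7 genes, Slc2a2, G6pc2 and Glp1r. The 250 bases before the start are shown for Slc2a2, whose ratios are among those described below, and for Glp1r, whose probe was near background. Capitals mark TAAT on either strand (TAAT or ATTA), the core letters recognised by homeodomain factors such as PDX1. The first window is chr2:113540120-113540369 and the second chr20:8973143-8973392, both on the plus strand.

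Slc2a2: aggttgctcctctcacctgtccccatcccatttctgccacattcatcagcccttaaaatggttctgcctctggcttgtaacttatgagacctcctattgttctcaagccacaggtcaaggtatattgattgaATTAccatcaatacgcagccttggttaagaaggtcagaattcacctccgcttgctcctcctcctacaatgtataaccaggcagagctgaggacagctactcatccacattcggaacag

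Glp1r: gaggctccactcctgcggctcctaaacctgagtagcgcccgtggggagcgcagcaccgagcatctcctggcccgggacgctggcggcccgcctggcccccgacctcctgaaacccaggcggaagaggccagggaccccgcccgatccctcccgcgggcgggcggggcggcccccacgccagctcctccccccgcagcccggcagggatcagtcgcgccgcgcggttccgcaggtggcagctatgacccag

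The Slc2a2 window was 47.2% G and C, with 1 TAAT and 1 E-box (CANNTG, which reads the same on both strands). The Glp1r window was 75.6% G and C, a share reached by 3.05% of the 33469 windows of the same length, with 0 TAAT and 1 CANNTG. The G6pc2 window held 4 TAAT and 0 CANNTG. Over all windows, 57.0% held at least 1 TAAT, 10.8% at least 4, and 65.5% at least 1 CANNTG. These letter matches are a description only. Slc30a8, Abcc8, Kcnj11 and Gipr are given by name and probe.

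Detection has a high floor on these arrays. The scanner software called 73.6% to 85.0% of gene spots well above background, lowest in wild type 2, where the median spot was 2.94 times its local background against 5.10 to 5.26 times in the other 3 extracts. Spots of olfactory receptors, which serve the olfactory epithelium, were called well above background at least as often, 77.4% to 90.1% of 1112 spots. The 153 negative controls reached a processed signal of at most 41.9 in any extract. The share of olfactory receptor spots at least as bright is therefore given beside each gene's signal as a measure of the floor. Probes differ in how well they hybridise, and differences in signal between probes are not read as differences in expression. Of the beta cell markers, Ins1, Ins2, Mafa and Pdx1 were well above background in all 4 extracts, Iapp in 3, Ero1b in 1 and Nkx6-1 in 0. All 11 acinar markers were also well above background in every extract.

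No gene of the set passed the test between genotypes. A probe was tested when the software called it well above background in both extracts of at least 1 genotype, and 5 of the 7 genes qualified: Slc2a2, Slc30a8, Abcc8, Kcnj11 and Gipr. With limma and Benjamini-Hochberg adjustment over the 27867 genes tested, 0 of these 5 had an adjusted p at or below 0.05, and 0 of all genes did (0%). At an unadjusted p under 0.05 the count was 0 of the 5, against 911 of all genes (3.27%). An exact sign-flip test of a pair of ratios cannot give a p under 0.5. The genes differed in how well the arrays repeated each other. Gipr was higher in HIP on both arrays (1 of 5 genes, against 27.1% of all genes), and 0 of 5 were lower on both (23.1% of all genes). With median centring and the all-gene median subtracted, or with an offset of 0.5 in background correction, Slc30a8 was lower on both. With the main processing, the 4 genes other than Gipr, Slc30a8 among them, were higher or level on array 1 and lower on array 2. That order was found in 25.2% of all genes. None of the 5 was at least 2-fold apart the same way on both arrays, which 5.16% of all genes were, and Kcnj11 alone was 2-fold apart in opposite directions, as were 5.57% of all genes. Its own order, 2-fold higher on array 1 and 2-fold lower on array 2, was found in 2.24%. Median ratios over the 5 were 0.35 on array 1 and -0.52 on array 2, against 0.03 and 0.02 over all genes tested.

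Kcnj11 encodes the pore of the ATP-sensitive potassium channel. On array 1 its processed signal was 14024 for wild type and 48236 for HIP, and on array 2 it was 41152 for wild type and 11126 for HIP. HIP 1 and wild type 2 were high and wild type 1 and HIP 2 were low, so the genotypes overlapped and the order of the pair turned between arrays. All 4 extracts were far above background, at 70.8 to 428 times the local background, and 0.540% to 6.92% of olfactory receptor spots were as bright. On the log2 ratio scale, HIP over wild type, Kcnj11 gave 1.78 on array 1 (3.44-fold higher in HIP) and -1.86 on array 2 (3.64-fold lower). The mean of -0.04 ± 2.58 (SD, n = 2 arrays) had an interval of -4.04 to 3.96 and a limma adjusted p of 0.999. The gap of 3.64 between the ratios was matched or exceeded by 8.02% of all genes tested. The mean near 0 is the average of opposite ratios.

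Abcc8 encodes SUR1, the regulatory subunit that binds sulfonylureas and assembles with Kir6.2. Its processed signal was 128 in wild type 1, 218 in HIP 1, 437 in wild type 2 and 347 in HIP 2. Both extracts of array 2 were brighter than both of array 1, and the genotypes overlapped. Its spots were 2.50 to 3.87 times the local background, and 49.3% to 77.1% of olfactory receptor spots were as bright, so this probe lay within the floor of the arrays. The log2 ratios were 0.24 and -0.13, with a mean of 0.06 ± 0.26 (SD, n = 2 arrays), an interval of -1.31 to 1.42 and a limma adjusted p of 0.998. The SUR1 probe thus had the same signs as the Kir6.2 probe with a gap of 0.37 between arrays. A gap that large was found in 73.7% of all genes.

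**Figure D1:**
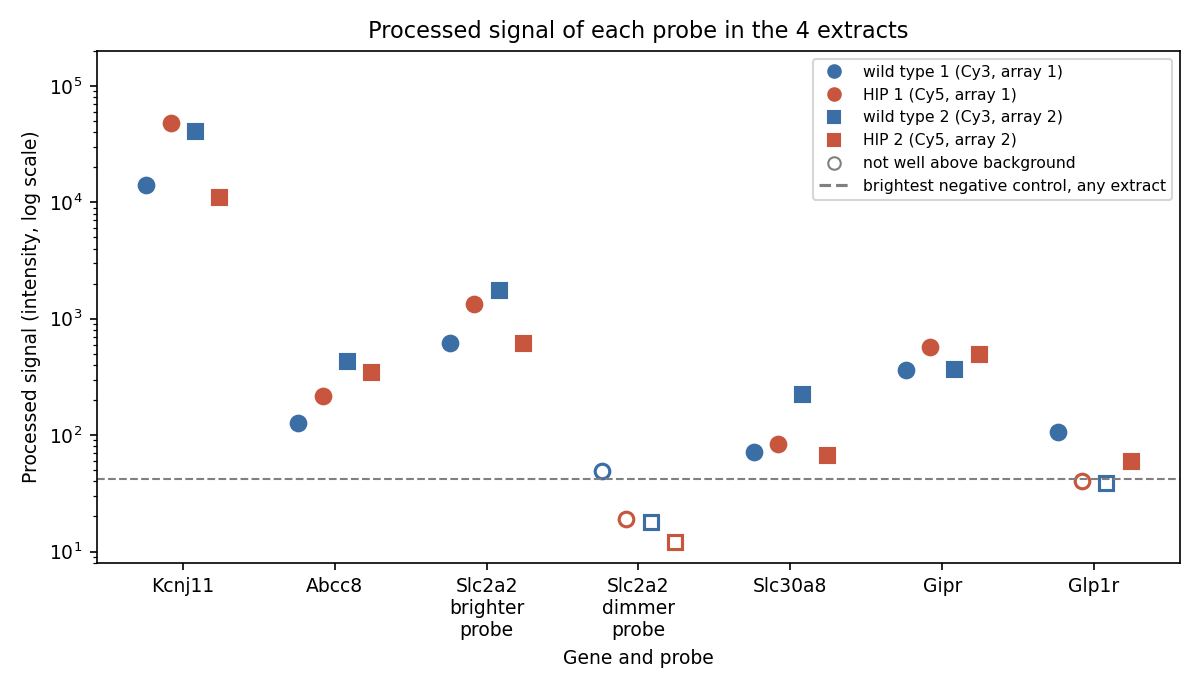
Processed signal (intensity, log scale) of each of the 7 probes in the 4 extracts, with open symbols where the spot was not well above background and a dashed line at 41.9, the brightest negative control in any extract. For Kcnj11 and the brighter Slc2a2 probe, HIP 1 lies above wild type 1 and HIP 2 below wild type 2, while both HIP extracts of Gipr lie above both wild types. Heights of different probes are not comparable.

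Slc2a2, the GLUT2 gene, was measured by a bright and a dim probe. The brighter one (A_44_P488355) read 621 in wild type 1, 1326 in HIP 1, 1770 in wild type 2 and 616 in HIP 2. HIP 1 and wild type 2 were again the high extracts and the genotypes overlapped. This probe was 5.51 to 8.86 times its local background, and 24.8% to 50.6% of olfactory receptor spots were as bright. The log2 ratio was 0.65 on array 1 (1.56-fold higher in HIP) and -1.14 on array 2 (2.21-fold lower). The mean was -0.25 ± 1.27 (SD, n = 2 arrays), with an interval of -2.52 to 2.02 and a limma adjusted p of 0.990. Its gap of 1.79 was reached by 27.7% of all genes, a common size on these arrays.

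The dimmer Slc2a2 probe (A_44_P226612) was not well above background in any extract, with processed signals of 49.3 and 17.9 in the wild types and 18.9 and 12.2 in the HIP extracts. It was not tested, and it gives no second view of the pattern of the brighter probe. The authors' deposited table lists log2 ratios of 0.86 and -1.50 under the dimmer probe's name, where the scanner output for that probe gives -1.38 and 0. Those entries lie nearer the scanner ratios of the brighter probe, 1.09 and -1.52, whose own name the table did not hold. No source used here says how the authors combined the 2 probes. G6pc2, with 0 spots under its name, has no value.

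Slc30a8 encodes ZnT8, which carries zinc into insulin granules. Its processed signal was 72.0 in wild type 1, 83.8 in HIP 1, 224 in wild type 2 and 68.0 in HIP 2. Wild type 2 stood above the other 3 extracts, which lay close together, and the genotypes overlapped. The spots were 1.78 to 2.38 times the local background, with 62.6% to 85.8% of olfactory receptor spots as bright. The log2 ratios were 0.00 and -0.52, and the mean of -0.26 ± 0.37 (SD, n = 2 arrays) had an interval of -1.68 to 1.16 and a limma adjusted p of 0.972. The offset of 50 used in background correction pulls ratios of spots this dim towards 0. With an offset of 0.5 they were -0.08 and -1.22, and the scanner software's own ratio for array 2, made without an offset, was -1.72.

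Gipr encodes the receptor of GIP, and of the 5 tested genes its arrays repeated most closely, with a gap of 0.08 (a gap at least that large was found in 93.5% of all genes). The wild types had processed signals of 360 and 372, and the HIP extracts 569 and 497. Both HIP extracts were above both wild-type extracts. Of the 5 tested genes, 1 had this order, against 17.1% of all genes, and 0 had both HIP extracts below, against 14.4%. Spots were 2.19 to 4.71 times the local background, and 48.7% to 61.4% of olfactory receptor spots were as bright, so this probe too lay within the floor. The log2 ratios were 0.35 and 0.27, that is 1.28-fold and 1.21-fold higher in HIP, with a mean of 0.31 ± 0.06 (SD, n = 2 arrays). The interval was -1.003 to 1.63 and the limma adjusted p 0.955, in a test that draws on a prior SD of 0.689 estimated over all genes. A mean ratio at least this far from 0 was found in 60.2% of all genes tested. HIP was always Cy5, so a dye difference of this probe cannot be told apart from genotype.

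Glp1r encodes the receptor of GLP-1 and of the drugs that mimic it. Its processed signal was 105 in wild type 1, 40.6 in HIP 1, 38.7 in wild type 2 and 60.3 in HIP 2. It was well above background only in wild type 1 and HIP 2, 1 extract of each genotype, and was not tested. HIP 1 and wild type 2 lay below the brightest negative control of any extract, and 80.2% to 92.1% of olfactory receptor spots were as bright as the probe. The log2 ratios, which rest on such signals, were -0.28 and 0.15, and the scanner software's ratios, without the offset, were -1.38 and 0.64. No difference between the genotypes was detectable for Glp1r at this signal.

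**Figure D2:**
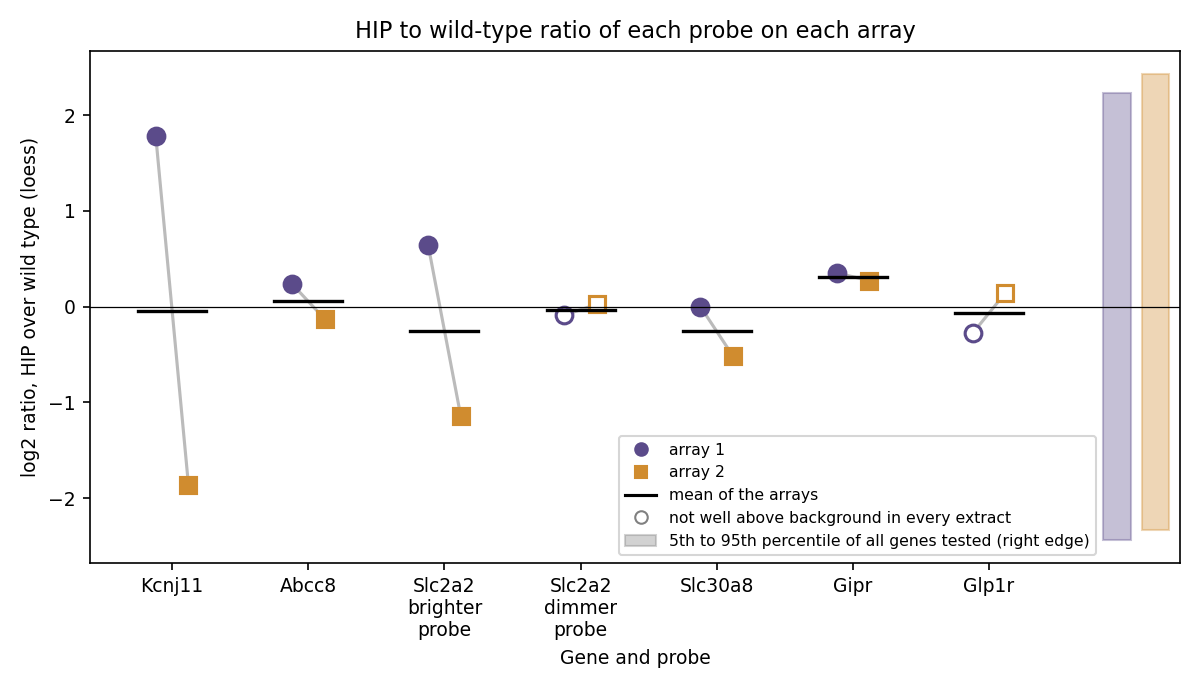
Loess-normalized log2 ratio of HIP over wild type for each probe on array 1 (circles) and array 2 (squares), with the mean as a black bar. Open symbols mark the 2 probes not well above background in every extract, and the bands at the right edge span the 5th to 95th percentile of all genes tested. Kcnj11 runs from 1.78 to -1.86 and Gipr from 0.35 to 0.27.

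The ratios of all genes on the 2 arrays were unrelated (Pearson r = -0.01 across 27867 genes, which are not independent replicates). Their SD was 1.36 on array 1 and 1.41 on array 2. Each of the 5 genes lay between the 5th and 95th percentiles of both arrays (-2.43 to 2.23 and -2.33 to 2.43).

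**Figure D3:**
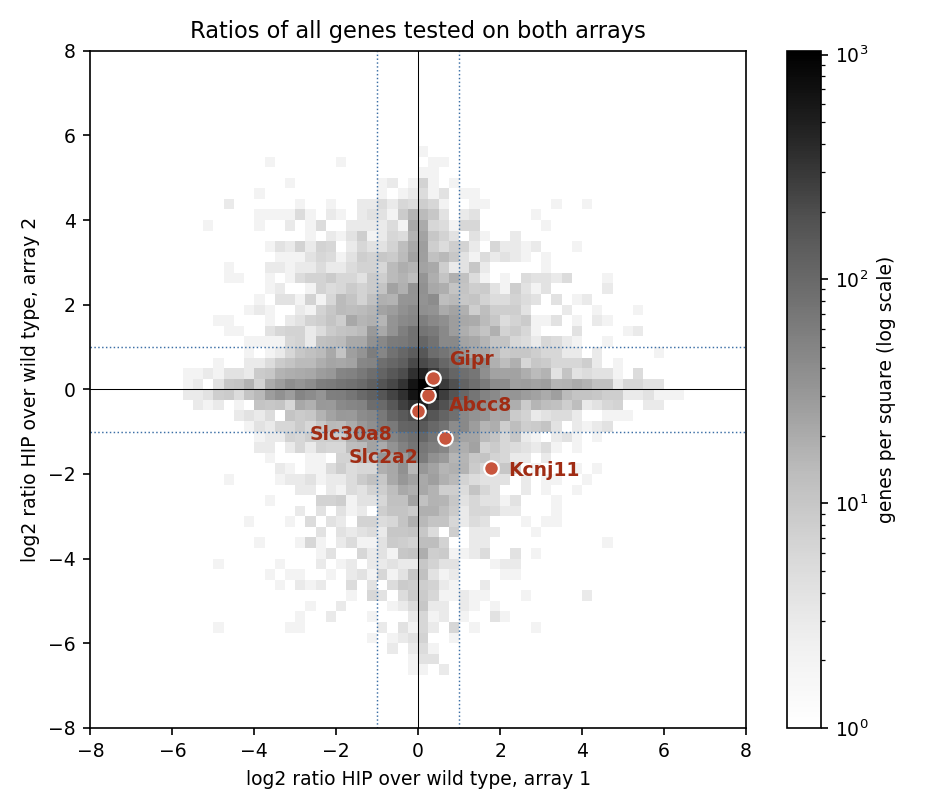
Log2 ratio on array 1 (horizontal) against array 2 (vertical) for the 27867 genes tested, shaded by the number of genes per square, with the 5 tested genes in red and dotted lines at 2-fold. Slc2a2 and Kcnj11 lie in the lower right quadrant, Abcc8 just inside it, Slc30a8 on its edge and Gipr in the upper right near the origin.

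Extracts of 1 genotype also differed from each other. After scaling the 4 channels to a common distribution, Kcnj11 was 1.23 higher on the log2 scale in wild type 2 than in wild type 1 (2.35-fold), and stood at -2.41 in HIP 2 relative to HIP 1 (5.33-fold lower). The HIP pair was further apart than for most genes, since 10.8% of genes had a gap as large, against 24.9% for the wild-type pair. For Slc2a2 the second extract minus the first was 1.16 in wild type and -0.63 in HIP. Abcc8 was higher in the second extract of both genotypes, by 0.83 and 0.47. Gipr was nearly level in both pairs, at 0.09 and 0.01. The median gap over all genes was 0.56 for the wild-type pair and 0.52 for the HIP pair. For Kcnj11 and Slc2a2, then, the difference between extracts of 1 genotype was of the size of the ratio between genotypes. These levels are rebuilt from the same ratios and intensities. The HIP difference less the wild-type difference therefore equals the change of the ratio between arrays. A gene whose ratio turned must differ within at least 1 genotype, so this is no separate observation.

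Of the 8 marker lists, the alpha cell list had most of its genes in the order of Kcnj11 and Slc2a2. Alpha cells, which make glucagon, also carry ATP-sensitive potassium channels. Of the 6 alpha cell markers listed, 5 were on the array, all well above background in all 4 extracts, and 4 of the 5 were higher on array 1 and lower on array 2. The glucagon gene Gcg gave log2 ratios of 2.84 and -1.35. The summed processed signal of the list was 8546 and 13357 in the wild types and 25832 and 8316 in HIP 1 and HIP 2, so it was high in HIP 1 and wild type 2, as Kcnj11 was. The 8 leukocyte markers on the array, all well above background, summed to 13670 and 30028 in the wild types and 16632 and 13117 in the HIP extracts, and 2 of the 8 were higher on array 1 and lower on array 2, so the sums rest on single genes. They were Ptprc in HIP 1 (3524 against 717 in wild type 1) and Lyz2 in wild type 2 (24038 against 9163 in HIP 2). The sums of the other 6 lists did not have this order. Acinar markers summed to 149823 in wild type 1 and 111578 in HIP 1, and to 158000 and 211103 on array 2, and ductal markers to 18399 and 9548, and 7144 and 9119. Endothelial sums were higher in HIP on both arrays (8831 and 53679, then 7931 and 10562). So were those of delta and PP cells (1866 and 9853, then 1517 and 8256). The endothelial sum of HIP 1 rests mostly on Esam (37684), which was lower in HIP on array 2 (978 against 1111). The delta and PP difference rests mostly on Rbp4 (112 and 157 in the wild types, 6453 and 6397 in the HIP extracts). Stromal sums were 14379 and 12729 on array 1 and 18987 and 19060 on array 2. Beta cell sums were lower in HIP on both arrays, at 150802 and 167846 in the wild types against 71380 and 87941 in the HIP extracts. These sums rest mostly on Ins1, Ins2 and Mafa, each lower in HIP on both arrays. Iapp was higher in HIP on both (log2 ratios 0.51 and 0.10), and Pdx1 differed in sign (-0.37 and 0.12). No alpha cell or leukocyte marker on the array was below the background call in any extract. The part of cell makeup in the ratios of Kcnj11 and Slc2a2 was not tested, and in whole extracts fewer cells of a type and less RNA per cell cannot be told apart.

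The neighbouring genes of the pathway were taken from 8 lists of 157 genes in all, 142 of them tested. With limma, 0 of the 142 had an adjusted p at or below 0.05. By sign alone, 30 had both ratios above 0, 31 had both below 0, and 81 differed in sign, against 27.1%, 23.1% and 49.8% of all genes. At least 2-fold the same way were 5 genes, all higher in HIP, against 5.16% of all genes (2.69% higher, 2.47% lower). At least 2-fold in opposite ways were 8 of the 142, against 5.57% of all genes. Median ratios over the lists were 0.06 and -0.05, against 0.03 and 0.02 for all genes. With median centring, and the all-gene median subtracted, 37 of the 142 had both ratios above 0 and 29 both below, and 9 were 2-fold higher (6.34%) and 1 was 2-fold lower (0.704%) on both arrays. Over all genes that centring gave 28.7% above, 28.7% below, 5.03% 2-fold higher and 1.98% 2-fold lower. Those named below were among the largest with 1 sign on both arrays or the brightest of each list. The remaining genes 2-fold apart on both arrays were named after their values were seen. Choice by a large ratio of 1 sign favours genes without overlap between the genotypes. Both HIP extracts lay above both wild types in 17.1% of all genes.

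In glucose entry and phosphorylation, 15 of 18 genes were tested, 5 with both ratios above 0 and 5 with both below. Pyruvate carboxylase, Pc, which feeds carbon into the citric acid cycle, gave -0.35 and -2.18.

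Among ion channels of beta cell excitability, 25 of 28 were tested, 6 with both ratios above 0, 6 with both below and 13 of mixed sign. Trpm5, a calcium-activated cation channel that adds to depolarisation, read 878 and 545 in the wild types and 2184 and 1985 in the HIP extracts. Both HIP extracts were above both wild types, as in 17.1% of all genes, and the log2 ratios were 1.00 and 1.34. The brightest, the sodium channel gene Scn8a, gave -0.60 and -0.04, with 0.43 and -1.62 from a second probe. Cacna1a, a voltage-gated calcium channel, was 2-fold apart in opposite ways, at 1.27 and -1.05.

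Zinc transporters and metallothioneins included 19 tested of 21, 3 with both ratios above 0, 5 with both below and 11 of mixed sign. Slc30a2, which exports zinc into vesicles as Slc30a8 does, read 930 and 943 in the wild types and 4483 and 2082 in the HIP extracts. Both HIP extracts were above both wild types, as in 17.1% of all genes, and the log2 ratios were 1.88 and 1.04. Slc30a3, the brightest, gave 0.06 and -0.24. Slc39a6, a zinc importer, gave -3.78 and -0.69, and its probe was not well above background in HIP 2.

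Class B receptors, the family of GLP1R and GIPR, had the largest share of mixed signs of the 8 lists. Of 12 tested out of 13, 1 had both ratios above 0, 0 had both below and 11 were of mixed sign, as were 49.8% of all genes. The glucagon receptor gene Gcgr gave log2 ratios of 3.97 and -2.42, Glp2r 4.46 and -1.76, Vipr1 1.44 and -1.41, and Crhr1 -1.99 and 1.68. These 4 were 2-fold apart in opposite ways, and for Glp2r a second probe gave -0.08 and -0.86. The gene higher on both arrays was Pth2r, a parathyroid hormone family receptor, at 0.20 and 2.06. Sctr, the secretin receptor of ductal cells, read 46380 in wild type 1 and 4173 in HIP 1, and gave -3.39 and 0.36. The gap of Gipr between arrays, 0.08, was smaller than that of each of these 12 genes, a difference that was not tested. The Gipr probe lay within the floor, where the offset of 50 pulls ratios towards 0. Its ratios were 0.55 and 0.49 with an offset of 0.5, and 0.66 and 0.41 from the scanner software.

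Other nutrient and transmitter receptors held 17 tested of 20, 4 with both ratios above 0, 3 with both below and 10 of mixed sign. Ffar2, a receptor of short-chain fatty acids, read 909 and 464 in the wild types and 3537 and 2720 in the HIP extracts. The groups did not overlap, with both HIP extracts above both wild types as in 17.1% of all genes. The log2 ratios were 1.57 and 1.83 (mean 1.70 ± 0.18, SD, n = 2 arrays). Ffar1, the receptor of long-chain fatty acids that strengthens glucose-stimulated secretion, gave 0.59 and 1.72, also without overlap. Chrm3, the muscarinic receptor of beta cells, gave 1.00 and -1.11.

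Of the genes for cyclic AMP signalling below the incretin receptors, 25 of 27 were tested, 5 with both ratios above 0, 9 with both below and 11 of mixed sign. Prkacb, a catalytic subunit of protein kinase A, gave 1.58 and 0.93, and its 2 other probes averaged 0.38 and 0.53. Pde1c, a phosphodiesterase that degrades cyclic AMP, gave -0.07 and -3.70, a difference resting on wild type 2 (13460 against 454 to 722 elsewhere). Adcy6, an adenylyl cyclase, gave -0.94 and 0.87, with signs turned in its second probe (0.61 and -1.002). Crem, a cyclic AMP-responsive transcription factor, gave 2.34 and -1.31, and -0.38 and 5.58 from a second probe.

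The incretin ligands and peptidase were 4 genes, all tested, with 1 higher on both arrays and 3 of mixed sign. Gip, the ligand of GIPR and a product of gut K cells, read 1192 and 2010 in the wild types and 3945 and 21009 in the HIP extracts. The groups did not overlap, with both HIP extracts above both wild types as in 17.1% of all genes. The log2 ratios were 1.40 and 3.16, but a second Gip probe gave -0.73 and -0.09. Gcg, whose product yields GLP-1 in the gut and glucagon in alpha cells, gave 2.84 and -1.35, as above. Of the insulin granule exocytosis genes, 25 of 26 were tested, 5 with both ratios above 0, 3 with both below and 17 of mixed sign. Cadps2, a priming factor, gave 3.35 and 0.25, with -0.50 and -0.19 from a second probe. Syt5, a calcium sensor and the brightest, gave 0.79 and 0.00. Rab3d, a granule GTPase, was 2-fold higher on both arrays at 1.82 and 1.25, against 0.15 and -0.19 from its second probe.

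**Figure D4:**
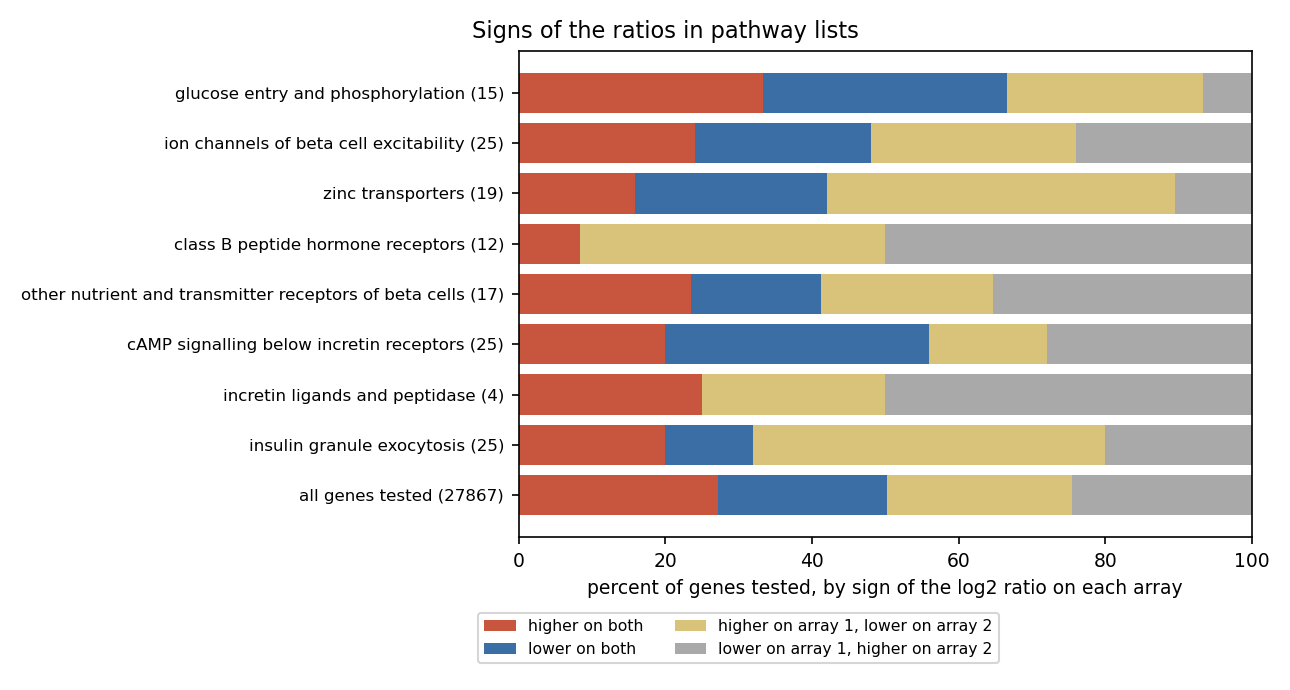
Share of tested genes in each pathway list (number tested in parentheses) by the sign of the log2 ratio on each array, with all 27867 genes at the bottom. In the class B receptor list 11 of 12 genes differ in sign between arrays, and in the glucose entry list 5 of 15 do.

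The list gene nearest to each of the 5 in its pair of log2 ratios was sought among the 142. Nearest to Kcnj11 was Vipr1, the receptor of vasoactive intestinal peptide (1.44 and -1.41), at a distance of 0.57 log2 units. Nearest to Slc2a2 was Nsf, the ATPase that recycles SNARE proteins (0.73 and -1.30), at 0.17. For Abcc8 it was Kcnj8, the gene of Kir6.1, the vascular relative of Kir6.2 (0.28 and -0.11), at 0.04. For Slc30a8 it was Slc2a1, the GLUT1 gene (0.06 and -0.51), at 0.06. For Gipr it was the transcription factor gene Atf1 (0.27 and 0.28), at 0.09. The likeness rests on 2 arrays, and between 56 and 158 of all genes tested were as near to the same gene. The mean ratio of 7 of the list genes named above (Scn8a, Slc30a3, Chrm3, Adcy6, Crhr1, Nsf and Slc2a1) turned its sign with median centring, after the all-gene median was subtracted.

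The scanner software's ratios, made from the processed signals without an offset, gave the same signs on each array for the 5 tested genes. They were 1.78 and -1.89 for Kcnj11, 1.09 and -1.52 for the brighter Slc2a2 probe, 0.76 and -0.33 for Abcc8, 0.22 and -1.72 for Slc30a8, and 0.66 and 0.41 for Gipr. For Slc2a2, Slc30a8, Abcc8 and Gipr these are further from 0 than the loess ratios on both arrays. The software's error model, which compares the dyes of a single array and not the genotypes, gave Kcnj11 a p of 9.73e-12 on array 1 and 1.88e-12 on array 2. For Gipr it gave 0.00245 and 0.0659. With median centring in place of loess, and with the all-gene median subtracted, Kcnj11 stood at 2.53 and -1.34 and Gipr at 0.30 and 0.22. Under that centring the mean of Kcnj11 turned to 0.60 and that of Abcc8 to -0.074, while the sign of Kcnj11 on each array stayed as it was.

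**Figure D5:**
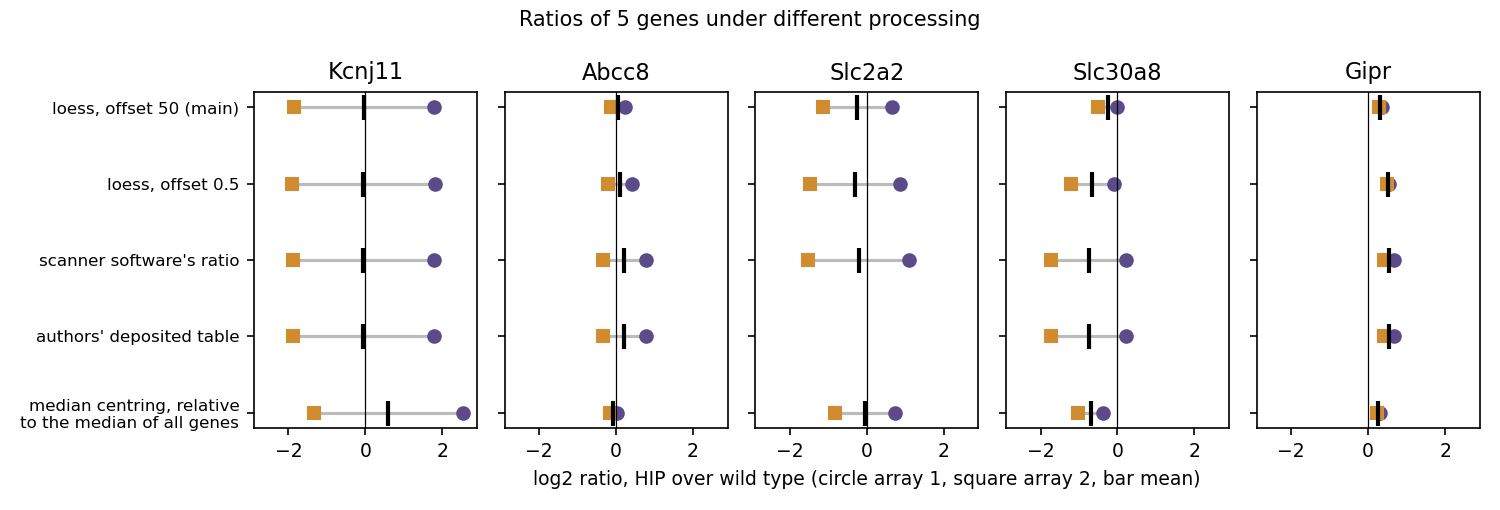
Log2 ratio of HIP over wild type on array 1 (circles) and array 2 (squares), with their mean (bar), for the 5 tested genes under 5 ways of processing. The bright Slc2a2 probe has no value in the authors' deposited table. Gipr keeps both arrays above 0 in each panel row, and Kcnj11 keeps array 1 above and array 2 below 0.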

How the data were processed

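Per the labels, bead-purified mRNA of lysed cells was copied into cDNA and amplified by a global PCR method, which can change the proportions of transcripts. Spots were quantified with Agilent Feature Extraction 9.5.1.1 on array design 014879, per the file headers. The deposited scanner intensities are mean spot and median local background signals without normalization. The processed signal intensity was background-subtracted and dye-normalized, per the file headers. The log10 ratio in the deposited files is processed Cy5 over processed Cy3, and its p-value comes from the error model of single arrays, per the file headers. The authors' deposited table of log10 values equalled the scanner ratio within 2e-05 on both arrays for 32775 of 36371 names with 1 spot. Its column medians were 0.01112 and 0, so its scale is log10, its direction Cy5 over Cy3 and it has no further centring. Both arrays lay on 1 slide in 1 scan, and batches were not tested.

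The ratios were made with limma 3.58.1 (R 4.3.3) by normexp background correction (offset 50) and loess within each array, control spots having weight 0. Outlier spots were left out and spots of a probe averaged. The filter kept 33211 of 41012 probes (81.0%). The brightest probe stood for a gene. The test of log2 ratios against 0 used lmFit and eBayes (two-sided, prior degrees of freedom 1.69, prior SD 0.689) and Benjamini-Hochberg adjustment at 0.05. Intervals are 95%. The procedure was run on simulated data, where recovery of shifted genes was required only at a spread far smaller than that of these data. That run does not show the power of the test with 2 arrays as variable as these. Levels of single channels were scaled with Aquantile. Names are those of the array, updated through RefSeq genes of GRCr8, by transcript accession for 10735 probes, another accession for 76 and symbol or synonym for 9279, with 19294 array names kept and 1628 probes unnamed. No source used here names the genome build behind the probes' positions. The genes and lists were chosen with earlier results of these data known. From each list the text names the brightest gene, the 2 with the largest mean ratio among those of like sign on both arrays, and for each tested gene the nearest list gene. Some genes named by this rule are not reported here.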

Additional observations from a re-analysis of the deposited data

How the results depend on the processing

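The count of genes past the limma test was 0 under each of the 13 alternatives that allowed a test, with a smallest adjusted p of 0.284 to 0.977 and 832 to 4705 genes at an unadjusted p under 0.05. Genes at least 2-fold the same way numbered 1437 (52.2% of them higher in HIP). They numbered 2528 with median centring (85.0% higher) and 7982 without normalization (98.1% higher), where the median of all genes lay at 0.18 and 0.27, and at 0.81 and 1.22. They numbered 2269 with a normexp offset of 0.5, 2922 with the scanner's processed ratio and 2711 in the authors' deposited table. Left to 1 array they ranged from 7991 to 8596. Of the 5 tested genes, 0 were 2-fold the same way, 1 without normalization, and from 1 to 2 with 1 array left out. These counts and those over all genes have no median subtracted. With the all-gene median subtracted, the means of Abcc8 and Kcnj11 reversed to -0.074 and 0.60 with median centring and without normalization. The cause was not tested. The ranges that follow also have that median subtracted with median centring and without normalization. The mean of Gipr stayed between 0.26 and 0.54, with both arrays above 0. With both arrays kept, the means of Slc2a2 (-0.30 to -0.04) and Slc30a8 (-0.75 to -0.26) stayed below 0 on that scale. Without the subtraction they would be higher in those settings, since the all-gene medians given above lay above 0. On array 1 alone, with the main processing, they were 0.65 and 0.00. The mean of Kcnj11 was 1.78 on array 1 alone and -1.86 on array 2 alone, and that of Abcc8 0.24 and -0.13. Slc30a8 was below the all-gene median on both arrays with median centring or no normalization, which give the same values after that subtraction (-0.38 and -1.02). With an offset of 0.5 and no subtraction it was below 0 on both (-0.08 and -1.22). The filter that took either dye on each array was chosen after seeing the data. No paired analysis was possible because each array already holds 1 pair and gives 1 ratio, and the test without 1 array has no residual degrees of freedom. A slide block could not be fitted with 1 slide. Signal over background limits Glp1r, the dimmer Slc2a2 probe, Slc30a8, Abcc8 and Gipr. The brighter Slc2a2 probe came near this limit in its low extracts. There 50.6% (wild type 1) and 44.1% (HIP 2) of olfactory receptor spots were as bright, against 33.3% in HIP 1 and 24.8% in wild type 2.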
